A study of Homo sapiens with 54 samples.

Results

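The mitosis genes described here are 38 listed genes whose products carry a cell through M phase, out of 58735 genes in the bulk expression table and 36601 in the single-cell matrices. All 38 were found by symbol in both. They were divided by role into 5 genes for CDK1, its B cyclins and CKS subunits, 6 mitotic and checkpoint kinases, 2 partners of the anaphase promoting complex, 6 centromere and kinetochore genes, 2 chromosomal passenger subunits other than AURKB, 7 spindle genes, 5 cytokinesis genes and 5 genes of chromosome structure.

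The study grew macrophages from H1, a human embryonic stem cell line, on a 3D porous microscaffold or in 2D culture, and compared their expression and chromatin. Bulk RNA came from 32 libraries in 11 groups, made from polyA RNA extracted with TRIzol by the SMART-seq2 full-length protocol. The 3D groups were E. coli (2 libraries, named in the title only, with no day), SP14 and SP6A (2 each, where the time point field holds these codes in place of a day and their meaning is not given), day 12 (4), days 16, 19 and 23 with FBS (fetal bovine serum, named in the title only, 3 each) and the same days without FBS named (3 each). The 2D group was day 12 (4). Every library is labelled H1 and macrophage, so all groups rest on 1 cell line, and nothing says that replicates were separate cultures, so p-values measure only the spread between these libraries. Single-cell 10x libraries of 3D cells came from days 7, 9 and 12, with 1 library a day, and the 19 chromatin samples were not used.

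Mitosis starts when CDK1 joined to a B cyclin is switched on, and ends when the anaphase promoting complex marks cyclin B and securin for destruction. In between, condensin and topoisomerase compact and untangle the chromosomes, kinetochores on CENPA chromatin bind microtubules, a checkpoint waits for all of them to attach, and a contractile ring then divides the cell. Most of these genes are transcribed late in the cell cycle, held down in resting cells by the DREAM complex and raised by MYBL2 and FOXM1, through a promoter element called CHR that often lies near CCAAT boxes. Blood monocytes divide little, while several tissue macrophage populations keep their numbers by dividing, so in a macrophage culture these transcripts report dividing cells of any type it holds.

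Of the 38 genes, 32 had an entry in RefSeq's promoter table (GRCh38.p14), which gives 250 bases before and 50 after each gene's start. AURKA, TTK, UBE2C, BIRC5, TPX2 and HMGB2 had none. On either strand, 27 of the 32 windows (84.38%) held a CHR (TTTGAA or TTCGAA), against 16.62% of all 27305 windows, and 24 (75%) held CCAAT, against 35.7%. Both were present in 22 windows (68.75%), against 6.581%, and 2 or more CCAAT in 19 (59.38%), against 11.32%. An E2F motif (TTGGCGC or TTCGCGC) was in 6 windows (18.75%), against 5.179%. The E2F letters TTGGCGC can share bases with a CCAAT read on the other strand. CENPE, KIF2C and GAS2L3 held none of the 3, which says only that these letters are not in those windows. The 130 bases before the start are shown for CCNB2 (chr15:59105016-59105145), PLK1 (chr16:23678759-23678888) and CDC20 (chr1:43358851-43358980), as a cyclin, a kinase and an anaphase promoting complex partner with CHR and CCAAT. GAS2L3 (chr12:100593488-100593617) is shown because it moved apart from the other genes in several comparisons. All lie on the plus strand, and capitals mark CHR and CCAAT letters. The GAS2L3 window lies inside the annotated span of the gene (chr12:100573684-100628288), so the annotated gene extends upstream of it.
CCNB2: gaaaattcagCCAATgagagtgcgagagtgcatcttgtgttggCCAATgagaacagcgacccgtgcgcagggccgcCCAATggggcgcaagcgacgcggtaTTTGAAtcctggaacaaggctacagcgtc
PLK1: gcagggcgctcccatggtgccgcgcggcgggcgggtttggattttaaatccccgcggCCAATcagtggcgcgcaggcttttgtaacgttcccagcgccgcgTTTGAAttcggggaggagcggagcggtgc
CDC20: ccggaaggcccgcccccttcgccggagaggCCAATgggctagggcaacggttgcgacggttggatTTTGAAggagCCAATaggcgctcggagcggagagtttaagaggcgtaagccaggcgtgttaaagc
GAS2L3: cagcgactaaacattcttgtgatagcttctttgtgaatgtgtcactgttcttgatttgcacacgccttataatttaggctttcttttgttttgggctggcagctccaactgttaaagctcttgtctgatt

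Bulk values are TPM (relative transcript levels, scaled to transcript length and library total), with no read totals, so the depth behind each value is unknown. Group means of genes at 1 TPM or more lay between 11893 and 13140, apart from 8028.5 in the E. coli libraries, whose 2 profiles correlated at r = 0.657 across genes, against 0.891 to 0.968 between replicates elsewhere. A few chosen entries named by clone, from clones FP236383 and FP671120, took 0.418% of TPM in 2D day 12 libraries. They took 7.69% in 3D day 12 and 28.4% in FBS day 19 libraries, and other genes named by clone were not counted in. All 14 listed macrophage markers exceeded 1 TPM in every bulk group. In the single-cell library of day 12, 2074 of 7592 kept cells fell into clusters named macrophage-like from these markers, while on day 7 there were 0 such cells and on day 9 the 2 clusters held 25 and 3. Between 17 and 24 cell barcodes were shared by each pair of single-cell libraries. The sources used here do not say how reads shared by near-identical or overlapping genes were counted. TUBB4B has close beta-tubulin copies, and 18 of the 38 genes overlap another annotated gene, among them KIF23, HMMR and PLK1, so part of their level may belong to the other gene.

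**Figure D1:**
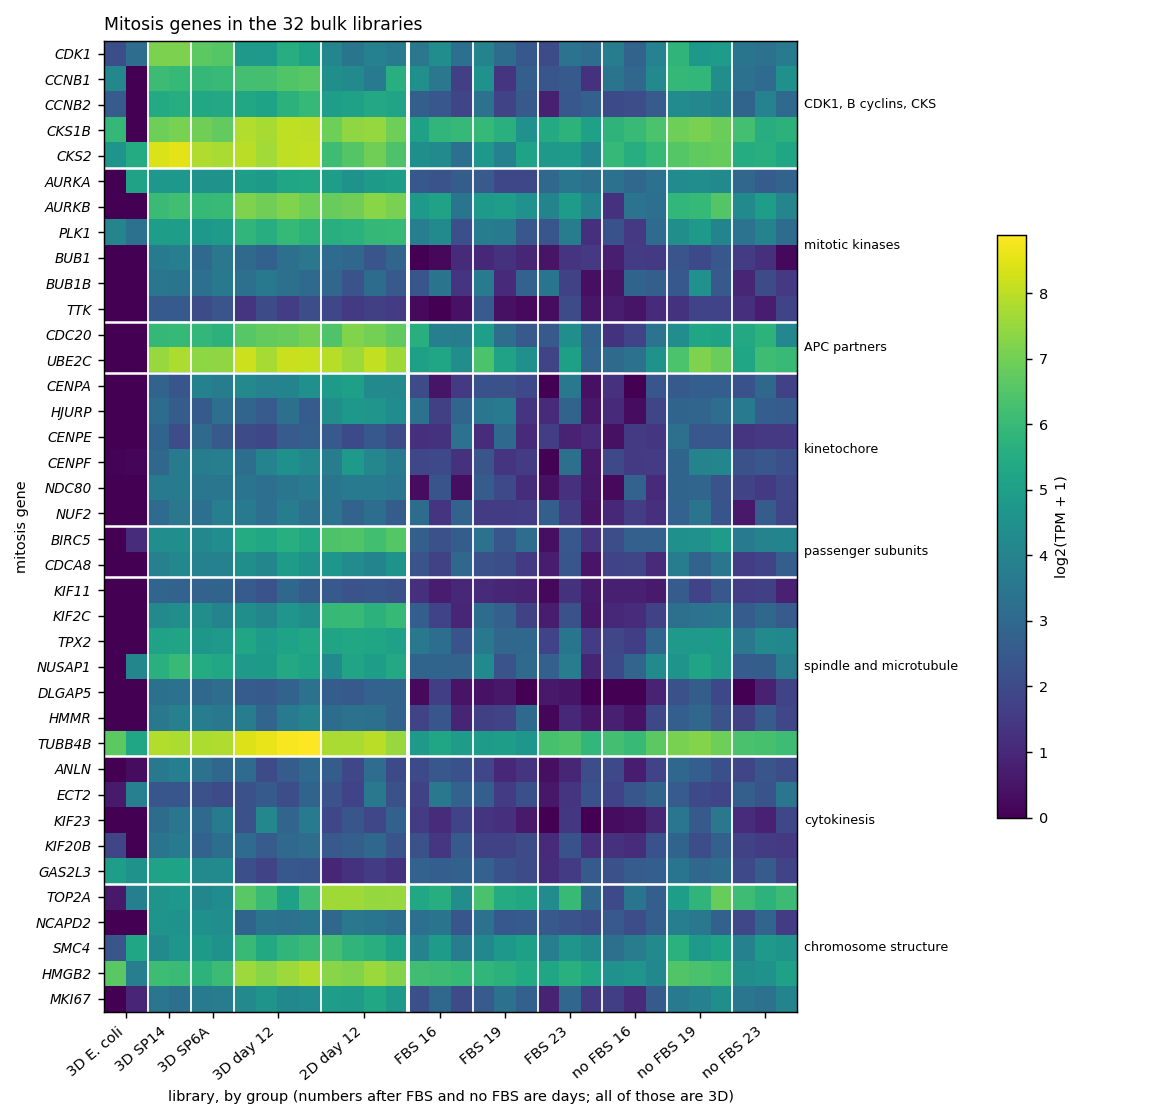
Heat map of log2(TPM + 1) for the 38 mitosis genes (rows, grouped by role) in each of the 32 bulk libraries (columns, grouped by condition, with numbers after FBS and no FBS giving the day). The SP14, SP6A, 3D day 12 and 2D day 12 columns are brighter than the later days in most rows, and 19 genes are at 0 in both E. coli libraries.

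3D against 2D culture at day 12 asks whether mitosis transcripts differ between the formats at the same day. In 3D cells CDK1, its cyclin CCNB1, the CKS subunits CKS1B and CKS2, the tubulin TUBB4B and the cytoskeletal linker GAS2L3 were higher, while the microtubule depolymerase KIF2C, the CENPA chaperone HJURP, the passenger subunit BIRC5, the topoisomerase TOP2A and the proliferation antigen MKI67 were lower. The other 27 genes, including all 6 mitotic and checkpoint kinases and both anaphase promoting complex partners, did not pass the test. Summed over the 38 genes, the level was 2292 ± 229 TPM in 3D and 1894 ± 135 TPM in 2D libraries (SD, n = 4 each). Abundant genes weigh most in this sum, and the roles went both ways. Mean sums in 3D and 2D were 649 and 311 TPM for the CDK1 group, 521 and 360 for spindle genes, 381 and 343 for anaphase promoting complex partners, 240 and 230 for kinases and 30.3 and 20.3 for cytokinesis. They were 342 and 441 TPM for chromosome structure, 63.5 and 104.5 for passenger subunits and 63.1 and 84.5 for kinetochore genes.

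CDK1 is the kinase that starts mitosis (chr10:60778331-60794852, GRCh38.p14). It had 27.4, 26.1, 45.6 and 34.5 TPM in the 3D libraries, against 15.6, 10.1, 13.98 and 11.9 TPM in the 2D libraries. Its activating cyclin CCNB1 had 74.6, 76.5, 89.1 and 94.9 TPM in 3D, against 20.5, 17.9, 11.9 and 46.6 TPM in 2D. CKS2, a small subunit that docks the CDK1 complex on phosphorylated substrates, had 250.2, 199.7, 261 and 269.9 TPM in 3D, against 68.3, 89.8, 124 and 84.8 TPM in 2D. For all 3 the lowest 3D library lay above the highest 2D library. On the log2(TPM + 1) scale, with the standard error in brackets, the differences were 1.29 (0.23) for CDK1, 1.92 (0.36) for CCNB1 and 1.43 (0.21) for CKS2, with limma adjusted p of 0.00303, 0.00429 and 0.00149. CKS1B, the other CKS subunit, averaged 239.9 ± 22.2 TPM in 3D and 148 ± 30.6 TPM in 2D, a difference of 0.71 (adjusted p = 0.0188). It no longer passed without 3D day 12 replicate 3 or with the replicate number as a block, where its adjusted p reached 0.0537. CCNB2, the second B cyclin listed, averaged 46.9 ± 12.3 TPM in 3D and 34.7 ± 3.8 TPM in 2D and did not pass (adjusted p = 0.181).

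KIF2C removes tubulin from microtubule ends and frees wrongly attached kinetochores (chr1:44739837-44767767). It had 20.7, 15.7, 23.8 and 20.1 TPM in the 3D libraries, against 60.7, 62.2, 51.4 and 61.5 TPM in the 2D libraries. HJURP, which loads CENPA at centromeres, had 6.47, 4.83, 8.62 and 4.95 TPM in 3D, against 19.9, 26.0, 23.8 and 18.8 TPM in 2D. TOP2A, which untangles sister DNA strands, had 97.3, 66.0, 33.0 and 70.3 TPM in 3D, against 197, 194, 179 and 182 TPM in 2D. The groups did not overlap for any of the 3, and the 3D TOP2A values spread widely, with replicate 3 lowest. BIRC5, the survivin subunit of the passenger complex, averaged 41.9 ± 4.61 TPM in 3D and 84.2 ± 8.45 TPM in 2D. The differences were -1.52 (0.17) for KIF2C, -1.70 (0.21) for HJURP, -1.58 (0.30) for TOP2A and -0.99 (0.16) for BIRC5, with limma adjusted p of 0.000519, 0.000752, 0.00437 and 0.00206.

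MKI67, a coat protein of mitotic chromosomes used as a marker of cycling cells (chr10:128096659-128126423), had 17.4, 23.5, 16.6 and 18.6 TPM in 3D, against 29.8, 29.0, 38.3 and 26.4 TPM in 2D. The groups did not overlap, and the difference of -0.67 (0.18) had a limma adjusted p of 0.0213. That call was lost under median-ratio scaling, with the replicate block, and without 3D day 12 replicate 1 or 3, where the adjusted p reached 0.0843. AURKB, the kinase of the passenger complex (chr17:8204731-8210575), had 143, 124, 147 and 119.7 TPM in 3D, against 113, 124, 159 and 136 TPM in 2D. Its groups lay over each other (difference 0.01, adjusted p = 0.969). TUBB4B averaged 411 ± 58.7 TPM in 3D and 216 ± 26.6 TPM in 2D (difference 0.92, adjusted p = 0.00436), and GAS2L3, which links actin and microtubules at the midbody, averaged 3.66 ± 0.859 TPM in 3D and 1.45 ± 0.413 TPM in 2D (0.92, adjusted p = 0.00878).

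**Figure D2:**
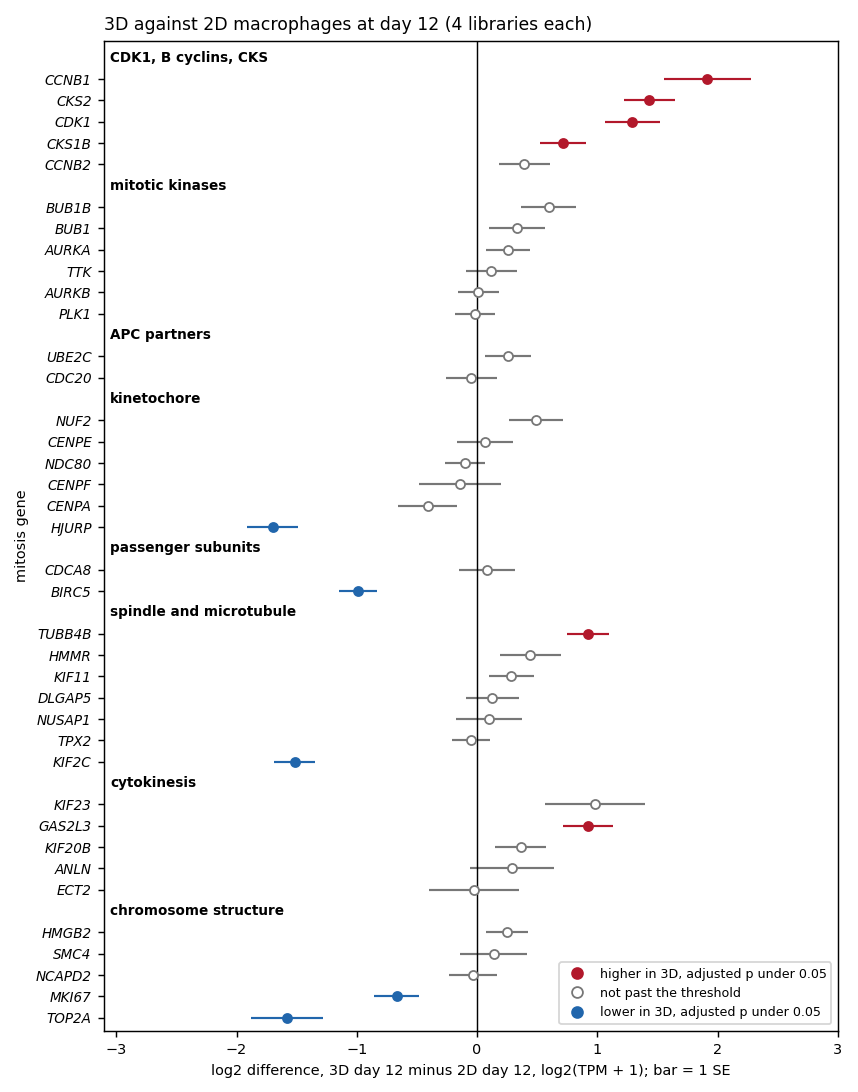
Difference of 3D day 12 minus 2D day 12 for each mitosis gene in log2(TPM + 1), with bars of 1 standard error (4 libraries a group, filled points have an adjusted p under 0.05, genes grouped by role). CCNB1 lies farthest to the right at 1.92 and HJURP farthest to the left at -1.70, and none of the 6 mitotic and checkpoint kinases listed apart from CDK1 passes the threshold.

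In all, 6 of 38 genes were higher and 5 lower in 3D, where 13% and 24.7% of the 13131 tested genes were higher and lower. The members' median difference was 0.13, against -0.21 over all genes. After median-ratio scaling the split was 8 higher and 4 lower. By role, 4 of 5 genes of the CDK1 group were higher (median 1.29), 0 of 6 kinases passed in either direction (median 0.19), 1 of 6 kinetochore genes was lower (median -0.12), 1 of 7 spindle genes was higher and 1 lower (median 0.13), and 1 of 5 cytokinesis genes was higher (median 0.36). Among 26 other kinetochore and checkpoint genes, 6 were higher and 1 lower. The lower one was SPC24, a subunit of the NDC80 complex, with 17.1 ± 6.79 TPM in 3D and 73.8 ± 15.3 TPM in 2D (adjusted p = 0.00121), while NDC80 itself averaged 10.1 ± 1.52 TPM in 3D and 10.9 ± 1.02 TPM in 2D. Of 15 other entry and exit regulators 1 was higher and 6 lower, led by UBE2S, the chain-extending enzyme of the anaphase promoting complex, at 47.4 ± 6.28 TPM in 3D and 260 ± 14.6 TPM in 2D (adjusted p = 5.02e-05). Of 28 DNA replication genes 10 were higher and 1 lower, and RRM2, a ribonucleotide reductase subunit, averaged 123 ± 57.9 TPM in 3D and 20.8 ± 4.09 TPM in 2D.

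Marker sums of other cell types differed between the formats too. The 12 erythroid markers summed to 27.7 to 1724 TPM in 3D, with HBB at 0, and to 3427 to 4416 TPM in 2D, with AHSP at 0. The 8 granulocyte progenitor markers summed to 280.1 to 418 TPM in 3D, with ELANE at 0, and to 1653 to 2971 TPM in 2D. The 14 macrophage markers summed to 13205 to 15310 TPM in 3D and 9939 to 10671 TPM in 2D, and the 7 monocyte markers to 4639 to 6572 TPM in 3D and 8285 to 10032 TPM in 2D. Megakaryocyte markers summed to 78.1 to 101 TPM in 3D and 749 to 1264 TPM in 2D, endothelial markers to 70.2 to 129 TPM in 3D and 242 to 279 TPM in 2D, and mast, basophil or eosinophil markers to 0.23 to 371 TPM in 3D and 356 to 616 TPM in 2D. Of the 10 megakaryocyte markers, 4 averaged 1 TPM or more in 3D and 9 in 2D. Only 3 of the 9 endothelial markers did so in either format, with TEK, CLDN5 and EMCN at 0 in 2D and EMCN at 0 in 3D. A sum from so few markers does not show how many such cells there were. Mesenchyme or stroma markers summed to 4.64 to 74.8 TPM in 3D and 0.72 to 1.51 TPM in 2D. Their part in these differences was not tested, and in bulk RNA fewer cells of a type and less RNA per cell cannot be told apart.

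From day 12 to day 23 in 3D culture without FBS, the mitosis transcripts were high at day 12, low at day 16, partly back at day 19 and low again at day 23. The summed level was 2292 ± 229 TPM at day 12 (n = 4), then 364 ± 86.4, 1123 ± 55.5 and 558 ± 30.6 TPM at days 16, 19 and 23 (SD, n = 3 each). No library of one of these days overlapped another day's in this sum. The comparisons of days 16, 19 and 23 with day 12 share the 4 day 12 libraries, so their values are set side by side only.

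At day 16, 30 of 38 genes were lower than at day 12 and none was higher, where 6.25% of the 13384 tested genes were lower and 10.3% higher (at an unadjusted p under 0.05, 35 were lower and 0 higher). The median difference was -2.25, against 0.18 over all genes. AURKB had 1.4, 9.5 and 8.58 TPM at day 16, against 143, 124, 147 and 119.7 TPM at day 12. UBE2C, the ubiquitin-loading enzyme of the anaphase promoting complex, had 7.42, 8.85 and 22.7 TPM at day 16, against 297, 210.1, 289 and 284 TPM at day 12. The DNA-bending protein HMGB2 had 21.3, 23.7 and 16.8 TPM at day 16, against 189.7, 158, 190.8 and 226 TPM at day 12. None of these groups came near each other. TUBB4B had 74.1, 64.0 and 99.6 TPM at day 16, against 341, 387, 442 and 474 TPM at day 12. The differences were -4.43 (0.43) for AURKB, -4.42 (0.54) for UBE2C, -3.15 (0.39) for HMGB2 and -2.37 (0.26) for TUBB4B, with limma adjusted p from 2.31e-07 to 5.9e-06.

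The drop at day 16 reached every role. It held for 4 of 5 genes of the CDK1 group (median -2.12), 4 of 6 kinases (-1.89), both anaphase promoting complex partners (-4.53), 5 of 6 kinetochore genes (-2.16), both passenger subunits (-2.90), 6 of 7 spindle genes (-2.53), 3 of 5 cytokinesis genes (-1.21) and 4 of 5 chromosome structure genes (-2.55). The 8 that did not pass were CKS1B, BUB1B, TTK, CENPE, NUSAP1, ECT2, GAS2L3 and NCAPD2. All but ECT2 and GAS2L3 among them were still lower in every day 16 library than in any day 12 library. CKS1B had 53.7, 64.0 and 81.2 TPM at day 16, against 234, 212, 261 and 253 TPM at day 12. The fit pooled the spread of all 28 3D libraries. These include the E. coli pair, where CKS1B had 59.3 and 0 TPM and AURKA 0 and 34.0 TPM. ECT2, the activator of RhoA at the division plane, averaged 4.25 ± 1.80 TPM on day 16 and 4.49 ± 1.32 TPM on day 12, and GAS2L3 averaged 4.64 ± 0.919 TPM on day 16 and 3.66 ± 0.859 TPM on day 12, with overlapping libraries. AURKA, the centrosome kinase, was the weakest call (8.29 ± 1.23 against 33.2 ± 5.13 TPM, adjusted p = 0.0456) and was lost without any 1 of the 7 libraries, where its adjusted p reached 0.247. MYBL2 and FOXM1, the activators of this gene class, fell to 3.50 ± 2.14 and 3.12 ± 0.279 TPM at day 16, against 28.7 ± 4.16 and 17.9 ± 3.97 TPM at day 12. Among other lists, 12 of 28 DNA replication genes, 9 of 25 kinetochore and 12 of 21 spindle genes were lower and 0 higher.

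At day 23, 29 of 38 genes were lower than at day 12 and none was higher (15.1% and 10.5% of all tested genes, limma, with 30 and 0 at an unadjusted p under 0.05), with a median of -1.71, against -0.10 over all genes. CKS2 had 43.9, 47.0 and 36.6 TPM at day 23, against 250.2, 199.7, 261 and 269.9 TPM at day 12, a difference of -2.50 (adjusted p = 3.7e-06). TUBB4B had 80.1, 78.8 and 68.7 TPM (-2.42, adjusted p = 8.06e-07) and HMGB2 had 20.1, 22.6 and 32.8 TPM (-2.90, adjusted p = 9.64e-06). BUB1, a checkpoint kinase, had 1.91, 1.37 and 0.13 TPM at day 23, against 7.51, 5.80, 8.63 and 10.6 TPM at day 12 (-2.18, adjusted p = 4.57e-05). All day 23 libraries lay below all day 12 libraries for these 4. All 5 genes of the CDK1 group and all 7 spindle genes were called, with 2 of 5 cytokinesis and 3 of 5 chromosome structure genes. These counts by role depended on single libraries. The CKS1B call was lost on leaving out any library of either day (limma adjusted p up to 0.215 over the alternatives). NUSAP1 was lost without day 23 replicate 1 or 2 or any day 12 library (up to 0.17). SMC4 and NCAPD2, of chromosome structure, were lost without day 23 replicate 1 or 3. TOP2A averaged 63.2 ± 8.86 TPM on day 23 and 66.6 ± 26.3 TPM on day 12 and did not pass (adjusted p = 1), nor did HJURP, with 7.27 ± 3.65 TPM on day 23 and 6.22 ± 1.77 TPM on day 12.

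At day 19, 4 of 38 genes were lower and 1 higher than at day 12 (5.39% and 6.37% of all tested genes), with a median of -0.65, against 0.04 over all genes. CDC20, which activates the anaphase promoting complex, had 19.4, 37.3 and 34.1 TPM at day 19, against 95.8, 107, 113 and 129 TPM at day 12. The groups did not overlap (-1.89, adjusted p = 0.0419). HMGB2 (80.4 ± 8.27 TPM, -1.23, adjusted p = 0.0408), CKS2 (102 ± 7.82 TPM, -1.25, adjusted p = 0.0092) and TUBB4B (136 ± 14.9 TPM, -1.58, adjusted p = 0.000254) were the other lower genes. Without any 1 of the 7 libraries the CDC20 and HMGB2 calls were lost and 2 lower genes were left. GAS2L3 was the higher gene, with 9.87, 6.87 and 7.74 TPM at day 19, against 3.46, 2.53, 4.43 and 4.21 TPM at day 12 (0.98, adjusted p = 0.0228). Its groups did not overlap, but the call was lost without day 19 replicate 1 or 3 or day 12 replicate 1 or 2, where the adjusted p reached 0.113.

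Day 19 against day 16 and day 23 against day 19 were compared after the values had been seen. At day 19, 12 of 38 genes were higher than at day 16 and none was lower (0.344% and 0.336% of all tested genes, limma, with 33 and 0 at an unadjusted p under 0.05), with a median of 1.63, against -0.11 over all genes. AURKB had 58.4, 60.9 and 90.9 TPM at day 19, against 1.4, 9.5 and 8.58 TPM at day 16 (3.48, adjusted p = 0.000324). TPX2, which nucleates spindle microtubules and activates AURKA, had 26.4, 27.2 and 27.7 TPM at day 19, against 2.67, 2.11 and 6.39 TPM at day 16 (2.68, adjusted p = 0.00164). KIF23, a motor of the midzone, had 10.2, 4.71 and 10.5 TPM at day 19, against 0.23, 0.31 and 0.92 TPM at day 16 (2.63, adjusted p = 0.00629). BIRC5 had 20.9, 21.8 and 28.5 TPM at day 19, against 3.25, 5.6 and 5.64 TPM at day 16 (2.10, adjusted p = 0.00931). Each of the 4 was several times higher in every day 19 library than in any day 16 library. UBE2C, KIF11, MKI67, KIF2C, DLGAP5, HMGB2, TOP2A and CDC20 also passed, with differences from 1.53 to 3.16. The count depended on single libraries: it was 5 without day 19 replicate 2 or 3, 4 without day 16 replicate 1 and 5 without day 16 replicate 2.

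At day 23, 11 genes were lower than at day 19 and none was higher (7.97% and 4.42% of all tested genes, limma, with 21 and 0 at an unadjusted p under 0.05), with a median of -0.99, against -0.15 over all genes. KIF23 had 1.2, 0.78 and 2.78 TPM at day 23, against 10.2, 4.71 and 10.5 TPM at day 19 (-1.88, adjusted p = 0.00859). CDK1 had 9.85, 9.04 and 11.8 TPM at day 23, against 55.8, 25.6 and 28.3 TPM at day 19 (-1.66, adjusted p = 0.0138). CKS2 had 43.9, 47.0 and 36.6 TPM at day 23, against 93.5, 105 and 108 TPM at day 19 (-1.25, adjusted p = 0.0152). HMGB2 had 20.1, 22.6 and 32.8 TPM at day 23, against 88.5, 80.8 and 72.0 TPM at day 19 (-1.66, adjusted p = 0.0104). These 4 did not overlap between the days. AURKB, BUB1, CDCA8, KIF11, DLGAP5, GAS2L3 and NCAPD2 were the other calls, and 2 chromosome genes, TOP2A (0.13) and MKI67 (-0.37), did not pass. The count was 5 without day 23 replicate 1 or 3, 4 without day 19 replicate 1 and 7 without day 19 replicate 3.

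**Figure D3:**
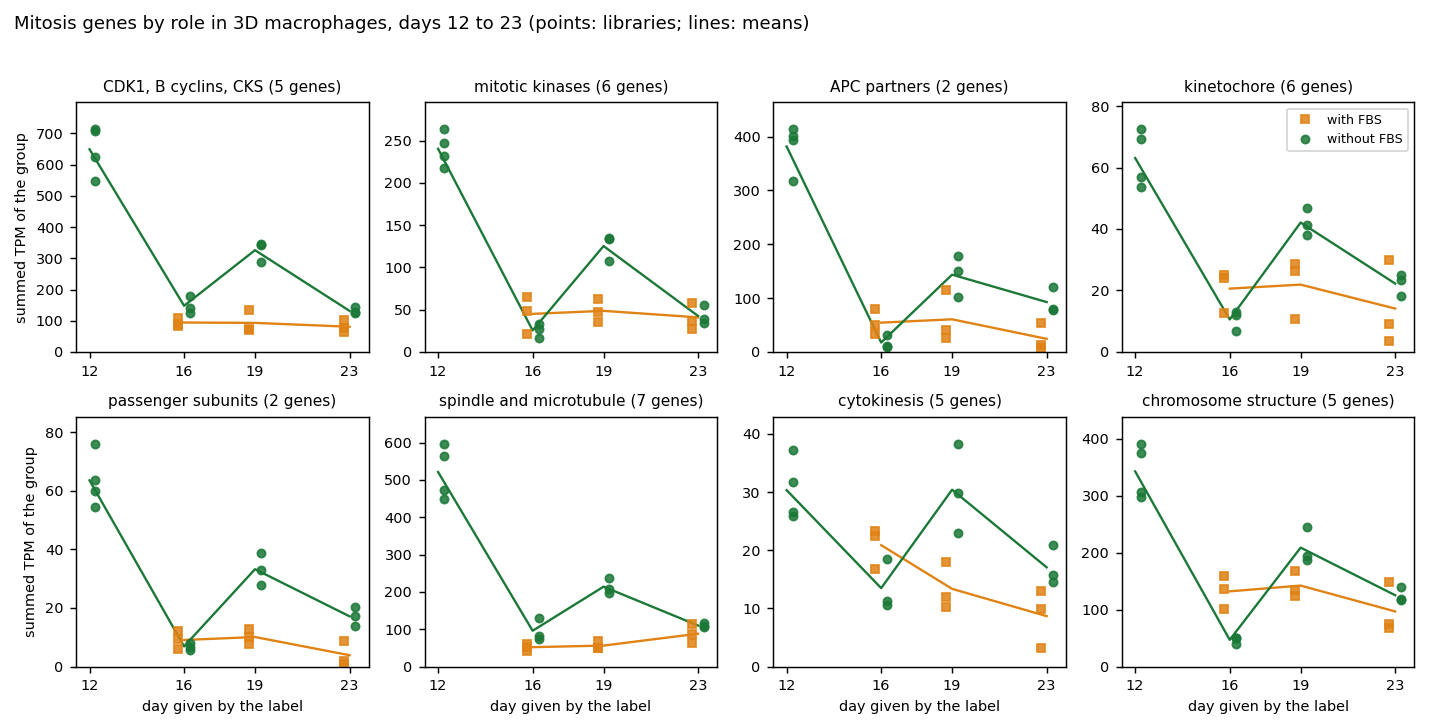
Summed TPM of each of the 8 role groups in 3D libraries against the labelled day, with FBS (squares, days 16 to 23) and without FBS (circles, days 12 to 23), where points are libraries and lines join group means. Without FBS every role group is lowest or close to its lowest mean at day 16 and has a second peak at day 19, and with FBS no role group shows that peak to the same height.

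Markers of other blood cells moved over the same days. Erythroid markers summed to 27.7 to 1724 TPM at day 12 and to at most 5.29 TPM on days 16, 19 and 23, when 10 or 11 of the 12 were at 0. Granulocyte progenitor markers summed to 280.1 to 418 TPM at day 12 and to 21.7 to 88.9 TPM from day 16 to 23, with MPO, ELANE and PRTN3 at 0. Macrophage markers had median sums of 14340, 22438, 18575 and 13653 TPM on days 12, 16, 19 and 23. The 7 monocyte markers had median sums of 5125, 1207, 1878 and 4715 TPM and the 8 lymphoid markers 221, 9.36, 24.2 and 161 TPM on the same days. Of the lymphoid markers only 3, 2, 2 and 3 averaged 1 TPM or more on these days. Mast, basophil or eosinophil markers summed to 0.23 to 371 TPM at day 12, 0 to 60.5 TPM at day 16, 5.94 to 860.3 TPM at day 19 and 72.6 to 115 TPM at day 23. The part of these cell types in the time course was not tested.

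FBS was compared with no FBS at each of days 16, 19 and 23, which asks whether serum goes with more or less mitosis gene expression at that day. The counts differed by day: 4 genes were higher and 2 lower with FBS at day 16, 17 were lower at day 19 and 6 were lower at day 23. Of all tested genes, 7.96% were higher and 10.1% lower at day 16, so the day 16 counts were not above what all genes showed by much. The shares of all genes lower were 12.2% at day 19 and 4.86% at day 23. The summed level was 428 ± 76.4 TPM with FBS and 364 ± 86.4 TPM without at day 16, 446 ± 140.1 and 1123 ± 55.5 TPM at day 19, and 357 ± 146 and 558 ± 30.6 TPM at day 23 (SD, n = 3 each). The FBS libraries thus stayed within 252 to 604 TPM on all 3 days.

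At day 16, 7.96% of all tested genes were higher and 10.1% lower with FBS, and the members' median was 0.47, against -0.01 over all genes. AURKB had 26.4, 34.2 and 10.0 TPM with FBS, against 1.4, 9.5 and 8.58 TPM without (1.82, adjusted p = 0.0075). HMGB2 had 70.1, 67.0 and 61.8 TPM with FBS, against 21.3, 23.7 and 16.8 TPM without (1.65, adjusted p = 0.00785). TOP2A had 38.3, 46.0 and 20.01 TPM with FBS, against 2.91, 10.1 and 5.42 TPM without (2.38, adjusted p = 0.0235). The groups did not overlap, although the AURKB groups nearly touched. CDC20, the fourth, had 48.0, 12.9 and 12.5 TPM with FBS, against 1.44, 2.46 and 9.56 TPM without (2.23, adjusted p = 0.0184). Only 1 higher gene was left without day 16 replicate 1, and 2 without FBS day 16 replicate 1. CKS2 had 20.5, 17.7 and 8.47 TPM with FBS, against 60.6, 45.5 and 61.7 TPM without (-1.85, adjusted p = 0.000466), and TUBB4B averaged 30.8 ± 4.76 TPM with FBS and 79.2 ± 18.4 TPM without (-1.32, adjusted p = 0.00215). Both were lower in every FBS library. At this day 10 of 28 DNA replication genes were lower with FBS and 0 higher, led by GINS2, a subunit of the replicative helicase (-2.91).

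At day 19, 12.2% of all tested genes were lower and 12.8% higher with FBS, and the members' median was -1.22, against 0 over all genes (limma, with 22 genes lower and 0 higher at an unadjusted p under 0.05). TUBB4B had 29.3, 29.7 and 24.3 TPM with FBS, against 136, 150.9 and 121 TPM without (-2.25, adjusted p = 6.18e-06). CKS2 had 25.6, 14.01 and 34.8 TPM with FBS, against 93.5, 105 and 108 TPM without (-2.09, adjusted p = 9.49e-05). KIF23 had 1.60, 1.27 and 0.57 TPM with FBS, against 10.2, 4.71 and 10.5 TPM without (-2.10, adjusted p = 0.00175). DLGAP5, a spindle assembly factor, had 0.34, 0.48 and 0 TPM with FBS, against 3.64, 5.14 and 2.80 TPM without (-1.92, adjusted p = 0.00133). For these 4 every FBS library lay below every library without FBS. The calls took in 4 of 5 genes of the CDK1 group (median -1.96), 3 of 6 kinases (-1.14), both passenger subunits (-1.52), 4 of 7 spindle genes (-1.65), 3 of 5 cytokinesis genes (-0.83), 1 of 6 kinetochore genes (-0.87) and 0 of 5 chromosome structure genes (-0.61). TOP2A averaged 54.2 ± 22.5 TPM with FBS and 65.8 ± 41.7 TPM without. The count was 9 without FBS day 19 replicate 3 or day 19 replicate 1, 10 without day 19 replicate 2 and 11 without day 19 replicate 3.

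At day 23, 4.86% of all tested genes were lower and 8.87% higher with FBS, and the members' median was -0.82, against 0.16 over all genes (limma, with 14 genes lower and 0 higher at an unadjusted p under 0.05). BIRC5 had 0.29, 4.38 and 1.59 TPM with FBS, against 11.7, 14.7 and 15.02 TPM without (-2.49, adjusted p = 0.000117). UBE2C had 2.55, 32.6 and 6.54 TPM with FBS, against 37.1, 68.6 and 62.2 TPM without (-2.51, adjusted p = 0.00498). MKI67 had 0.85, 6.63 and 1.83 TPM with FBS, against 10.4, 9.15 and 15.2 TPM without (-1.85, adjusted p = 0.00567). The groups did not overlap, and replicate 2 was the highest FBS library for each. TPX2 (-1.68), KIF2C (-1.55) and HMMR (-1.46), all spindle genes, were the other calls. Without FBS day 23 replicate 2, whose 38 genes summed to 524 TPM against 296 and 252 TPM in the other two, 13 genes were lower. Without FBS day 23 replicate 1 or 3 or day 23 replicate 2 the count was 4. KIF2C and HMMR did not pass in any of these 3 fits (adjusted p up to 0.0944 and 0.118), and TPX2 did not pass without FBS day 23 replicate 3 (0.0602).

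**Figure D4:**
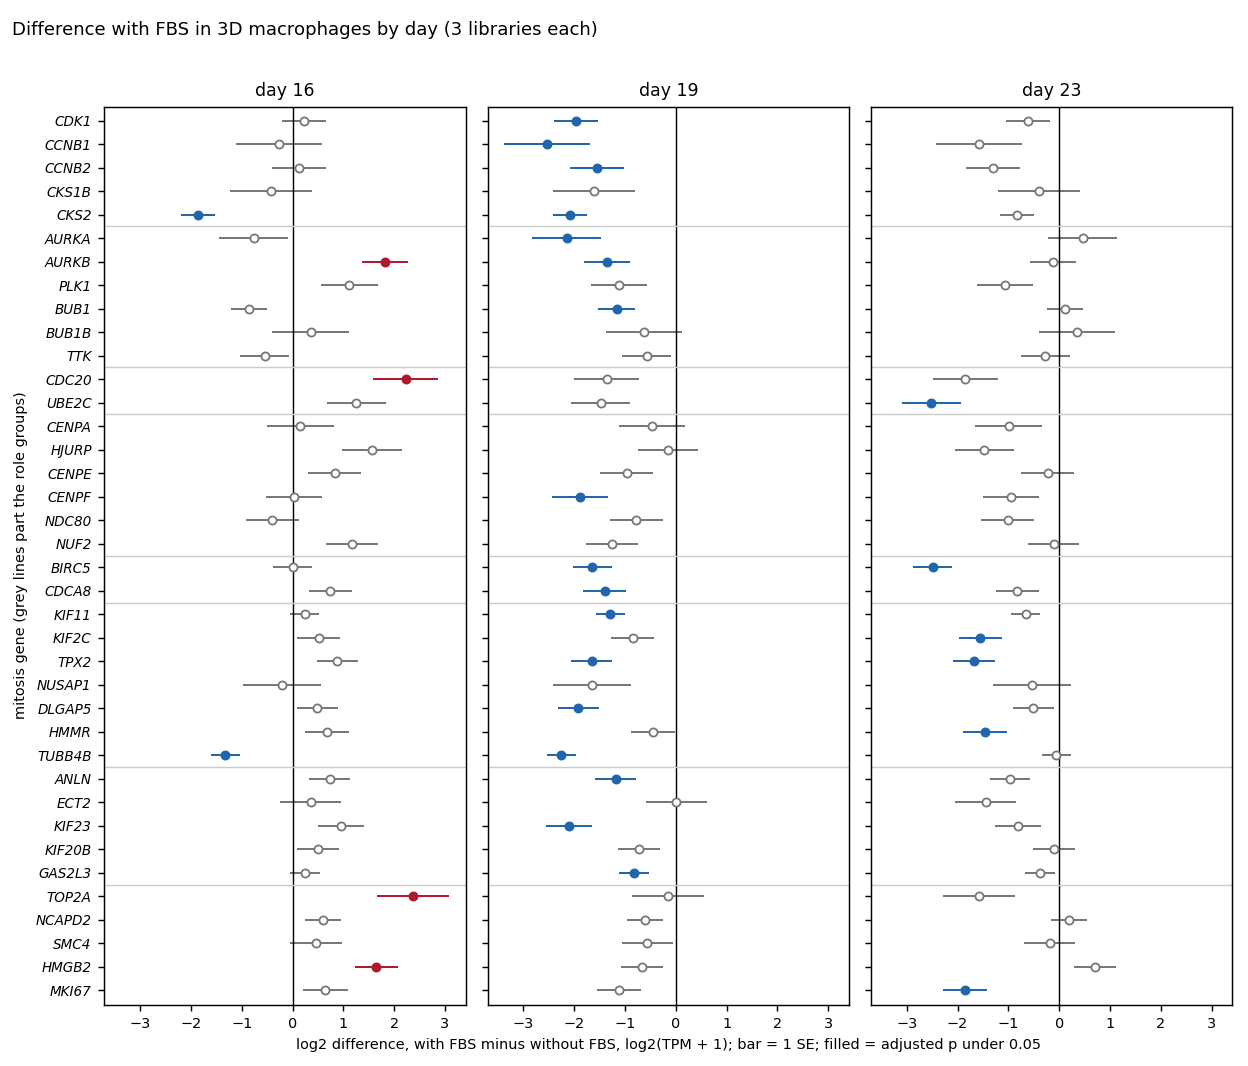
Difference with FBS minus without FBS for each mitosis gene in log2(TPM + 1) at days 16, 19 and 23, with bars of 1 standard error (3 libraries a group, filled points have an adjusted p under 0.05). AURKB lies at 1.82 on day 16 and -1.36 on day 19, and 17 filled points lie below 0 on day 19.

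The FBS difference itself differed between the days for 16 of 38 genes (limma interaction test, 12.9% of all tested genes). AURKB showed 1.82, -1.36 and -0.12 at days 16, 19 and 23 (interaction adjusted p = 0.00585), CDC20 2.23, -1.36 and -1.85 (0.0064), and TPX2 0.88, -1.66 and -1.68 (0.00509). TUBB4B showed -1.32, -2.25 and -0.05 (0.00251), so that it was lower with FBS on days 16 and 19 but did not pass on day 23. The other 12 were CDK1, UBE2C, HJURP, BIRC5, CDCA8, KIF11, DLGAP5, ANLN, KIF23, TOP2A, HMGB2 and MKI67. Without FBS day 16 replicate 1 the count was 9, and it was 10 without day 16 replicate 2 or day 19 replicate 1. Monocyte markers summed to 1008 to 1200 TPM with FBS and 1198 to 1273 TPM without at day 16, to 917 to 1121 and 1850 to 1906 TPM at day 19, and to 2014 to 2335 and 4623 to 5099 TPM at day 23. Other marker sums differed too. Macrophage markers summed to 21165 to 23252 TPM with FBS and 13396 to 13743 TPM without at day 23, and overlapped on days 16 and 19. Lymphoid markers summed to 32.5 to 40 and 154 to 180 TPM at day 23, and overlapped on the earlier days. Of these 8 markers, 2 averaged 1 TPM or more with FBS and 3 without at day 23. Endothelial markers summed to 101 to 123 and 142 to 209 TPM at day 16, and to 266 to 376 and 120 to 185 TPM at day 19. Only 3 of the 9 averaged 1 TPM or more in these groups, apart from 4 in FBS day 19. There KDR, TEK, CLDN5, VWF and EMCN were at 0. The part of these cell types in the FBS differences was not tested.

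SP6A and SP14 libraries were each set against 3D day 12, and the 2 comparisons share the day 12 libraries. In both, CDK1, the condensin subunit NCAPD2 and GAS2L3 were higher, and HMGB2 and TUBB4B were lower. The summed level was 1736 and 1861 TPM in SP14 and 1496 and 1498 TPM in SP6A, against 1996 to 2515 TPM at day 12. CDK1 had 138 and 140.7 TPM in SP14 and 98.8 and 92.8 TPM in SP6A, against 27.4, 26.1, 45.6 and 34.5 TPM at day 12. These SP14 values were the highest of CDK1 in any of the 32 libraries. GAS2L3 had 33.9 and 34.7 TPM in SP14 and 18.1 and 18.2 TPM in SP6A, against 3.46, 2.53, 4.43 and 4.21 TPM at day 12. NCAPD2, which helps condensin compact chromosomes, had 23.6 and 22.7 TPM in SP14 and 20.9 and 19.3 TPM in SP6A, against 6.36, 9.62, 9.17 and 9.91 TPM at day 12. No SP library overlapped day 12 for these 3.

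For SP14 the differences were 2.94 (0.32) for GAS2L3, 2.07 (0.46) for CDK1 and 1.32 (0.37) for NCAPD2 (limma adjusted p = 2.98e-07, 0.0014 and 0.00875). HMGB2 fell to 68.5 and 65.3 TPM in SP14, against 189.7, 158, 190.8 and 226 TPM at day 12 (-1.49, adjusted p = 0.0123), and TUBB4B to 232 and 223 TPM, against 341, 387, 442 and 474 TPM (-0.84, adjusted p = 0.0356). So 3 genes were higher and 2 lower, where 18.4% and 13% of all tested genes were, and the members' median was -0.06, against 0.09 over all genes. Median-ratio scaling gave 3 higher and 6 lower. Without either SP14 library 0 lower genes were left and NCAPD2 no longer passed (adjusted p up to 0.0705), and without day 12 replicate 2, 3 or 4 there was 1 lower gene. For SP6A the differences were 2.06 (0.32) for GAS2L3, 1.53 (0.46) for CDK1 and 1.13 (0.37) for NCAPD2 (adjusted p = 3.67e-05, 0.0156 and 0.0262). HMGB2 (52.9 and 66.8 TPM, -1.66, adjusted p = 0.00664), BIRC5 (16.2 and 19.5 TPM, -1.18, adjusted p = 0.0333) and TUBB4B (222 and 225 TPM, -0.87, adjusted p = 0.0334) were lower in SP6A. That is 3 higher and 3 lower, where 17.1% and 10.8% of all tested genes were, and the members' median was -0.20, against 0.18 over all genes. Median-ratio scaling gave 1 higher, GAS2L3, and 4 lower. Without SP6A replicate 1 there were 1 higher and 0 lower, and without SP6A replicate 2 there were 1 and 1. Without day 12 replicate 3, 1 gene was lower.

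Around these calls, CCNB1, the partner of CDK1, had 66.8 and 61.6 TPM in SP14 and 59.1 and 62.8 TPM in SP6A, against 83.8 ± 9.81 TPM at day 12, and did not pass. TOP2A had 23.2 and 25.8 TPM in SP14 and 16.1 and 19.1 TPM in SP6A, below each of the 97.3, 66.0, 33.0 and 70.3 TPM at day 12, and did not pass either (adjusted p = 0.205 and 0.0859). Of 28 DNA replication genes 11 were lower in each and 0 higher. MYBL2 averaged 2.26 TPM in SP14 and 3.38 TPM in SP6A, against 28.7 TPM at day 12 (-3.18 and -2.78), while RACGAP1, the partner of KIF23 at the midzone, averaged 22.8 TPM in SP14 and 22.1 TPM in SP6A, against 5.40 TPM (1.94 and 1.90). SP14 against SP6A gave 0 of 38 genes in either direction with limma (0.0224% and 0.00747% of all tested genes), with 1 higher and 0 lower at an unadjusted p under 0.05. GAS2L3 there was 0.88 (0.37) higher in SP14. Macrophage markers summed to a median of 22855 TPM in SP14 and 25113 TPM in SP6A, against 14340 TPM at day 12, and endothelial markers to 345 and 374 TPM, against 96.9 TPM. Only 3 of the 9 endothelial markers averaged 1 TPM or more in each of the 3 groups. Their part was not tested.

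E. coli libraries were set against the 13 unexposed 3D libraries of days 12, 16, 19 and 23 without FBS, since no day is given for them. The reference was the mean of the day means, with each day weighted alike. Most mitosis genes were near or at 0: 19 were listed at 0 in both E. coli libraries, 9 in one only, and 10 were above 0 in both. The share of all genes at 0 in both was not counted, so these zeros cannot be called particular to mitosis genes. A mean of 8028.5 genes reached 1 TPM in these libraries, against 11893 to 13140 in the other groups. Among 1140 values in the other 30 libraries, 11 were 0. AURKB, UBE2C, CDC20, TPX2, KIF2C, NCAPD2 and BUB1 were listed at 0 in both. They had at least 0.13 TPM in every unexposed library, and for AURKB these ran from 1.4 to 147 TPM. The 38 genes summed to 358 and 248 TPM in the E. coli libraries, against 309 to 464 TPM in the unexposed day 16 libraries, 533 to 592 TPM at day 23, 1067 to 1178 TPM at day 19 and 1996 to 2515 TPM at day 12. The difference in this sum from the 13 libraries thus depends on the days taken into their mean. The sum is weighted to abundant genes, such as TUBB4B and HMGB2 (99.95 and 96.67 TPM in E. coli replicate 1). Roles differed from day 16 in both directions. Anaphase promoting complex partners summed to 0 TPM in both E. coli libraries, against 8.86 to 32.27 TPM at day 16, and kinetochore genes to 0.06 and 0.08, against 6.9 to 12.86 TPM. Cytokinesis genes summed to 33.82 and 36.17 TPM, against 10.55 to 18.56 TPM. In the fit 32 genes were lower and 1 higher, where 42.9% and 13.7% of all tested genes were, with a median of -2.32, against -0.84 over all genes.

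GAS2L3 was the higher gene, with 30.6 and 22.3 TPM in the E. coli libraries, against 2.53 to 9.87 TPM in the 13 unexposed libraries. Both exceeded every unexposed library (2.27, adjusted p = 6.09e-07). The 2 libraries differed from each other in other members. AURKA had 0 and 34.0 TPM, CKS1B 59.3 and 0 TPM, CCNB1 16.4 and 0 TPM, NUSAP1 0 and 15.8 TPM, and HMGB2 96.7 and 13.0 TPM. AURKA, PLK1, ECT2, SMC4 and HMGB2 did not pass. Without E. coli replicate 1, 3 genes were higher, and without replicate 2, 2 were. Beside these values, the E. coli libraries had fewer genes detected, with 21.2% of TPM from mitochondrial genes against 4.53% to 10.6% in other groups, and erythroid marker sums of 0 and 3484 TPM. Whether library quality had a part in the low values was not tested.

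GAS2L3 stood apart across the bulk groups. It was singled out after its values were seen, so these levels are a description. It averaged 26.5 TPM in E. coli, 34.3 TPM in SP14 and 18.2 TPM in SP6A libraries, 3.66, 4.64, 8.16 and 3.44 TPM on days 12, 16, 19 and 23, 5.65, 4.24 and 2.63 TPM on days 16, 19 and 23 with FBS, and 1.45 TPM in 2D day 12. The SP14 libraries lay above the E. coli libraries, these above SP6A, and SP6A above all others, while the 2D libraries, at 0.92 to 1.93 TPM, lay below all 3D libraries except FBS day 23 replicate 1, at 1.23 TPM. The order among the day groups with values between 3 and 6 TPM did not go beyond the spread of their libraries.

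In the single-cell libraries mitosis transcripts were counted as UMIs (unique molecular identifiers), with members summed and scaled to the UMI total of a cell class (counts scaled to a common total, CPM). Clusters were made without the 38 genes and other cell cycle genes. Classes were named from marker lists, by a rule set after the clusters had been seen. With 1 library a day there is no test, and exact intervals (95%, Poisson for CPM and binomial for shares) cover counting error only. Over all kept cells the members took 2619, 2232 and 2398 CPM on days 7, 9 and 12, at median depths of 24179, 13032 and 16617 UMIs, and after thinning each cell to 3000 UMIs, 16.7%, 18.7% and 19.03% of cells had a TOP2A UMI.

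On day 12 the macrophage-like cells had a high share of mitosis transcripts. In 2074 cells with a median of 30120 UMIs the members took 3271 CPM (3257 to 3285), and 36.8% of 2057 thinned cells had a TOP2A UMI (34.8% to 39.0%), 28.8% an MKI67 UMI and 16.1% a CCNB1 UMI. Unthinned the TOP2A share was 67.6%, and 17 shallow cells were left out. Erythroid-like cells had 4040 CPM and 21.4%, mast, basophil or eosinophil-like cells 3541 CPM and 29.95%, and granulocyte progenitor-like cells 3232 CPM and 31.0%. Mesenchyme or stroma-like cells, the most numerous class with 3756 cells, had 1119 CPM and 7.89%, and endothelial-like cells 860 CPM and 6.12% (3.60% to 9.61%). No class here is known to lack TOP2A, so free RNA was judged from the endothelial-like share as the lowest, at a median of 16310.5 UMIs and 16.8% unthinned. Megakaryocyte-like cells had 2019 CPM and 9.50%. Blood cell classes other than megakaryocyte-like cells thus lay above stroma and endothelium in both measures, beyond counting error.

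The roles did so in parallel. The CDK1 group took 471 CPM in macrophage-like cells, against 179 CPM in mesenchyme or stroma-like and 120 CPM in endothelial-like cells. Kinases took 240 CPM, against 62.5 and 49.7 CPM, kinetochore genes 334 CPM, against 137 and 88.1 CPM, and spindle genes 790 CPM, against 265 and 232 CPM. Cytokinesis genes differed less from endothelial-like cells, at 221 CPM in macrophage-like cells, against 80.7 and 110 CPM. GAS2L3 was part of that, with 39.1 CPM in macrophage-like cells, against 44.8 CPM in endothelial-like and 6.84 CPM in mesenchyme or stroma-like cells. In endothelial-like cells it was also the highest class value on day 7 (38.7 CPM, others 2.69 to 17.4) and day 9 (30.1 CPM, others 4.40 to 12.5). HMGB2 was higher in erythroid-like (541 CPM), mast, basophil or eosinophil-like (476 CPM) and granulocyte progenitor-like cells (470.2 CPM) than in macrophage-like cells (226 CPM), whereas TOP2A was highest in macrophage-like cells (401 CPM, against 280.0 CPM in erythroid-like cells).

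**Figure D5:**
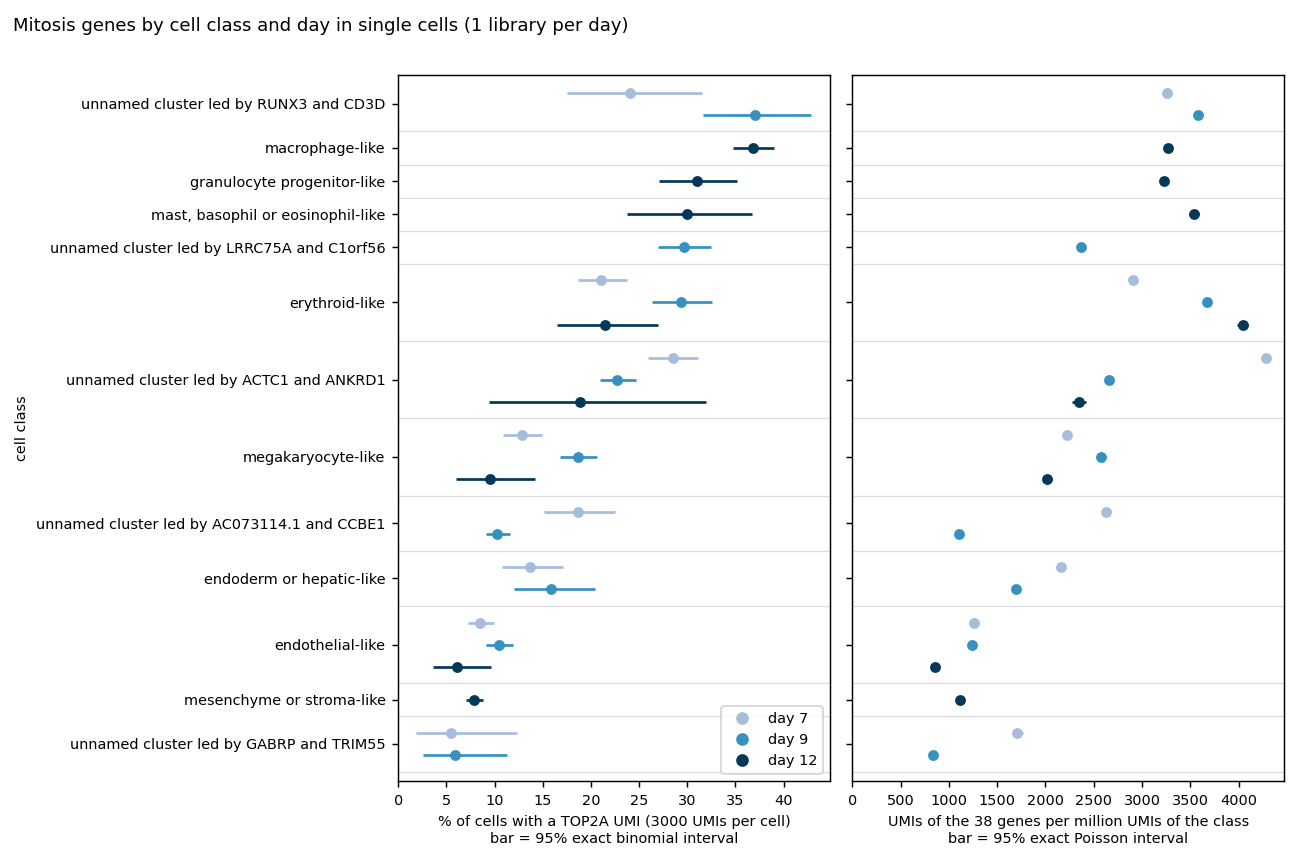
Share of cells with a TOP2A UMI after thinning to 3000 UMIs (left, exact 95% binomial interval) and CPM of the 38 genes (right, exact 95% Poisson interval) by cell class and day, from 1 library a day. On day 12 macrophage-like cells lie at 36.8% and 3271 CPM and endothelial-like cells at 6.12% and 860 CPM.

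The macrophage-like class was made up of 2 clusters. The cluster led by MRC1, ADAP2 and CD14 (643 cells, median 32039 UMIs) had 4581 CPM of mitosis transcripts (4553 to 4610) and a TOP2A UMI in 55.4% of thinned cells (51.5% to 59.3%). The cluster led by CCL4 and CCL3 (1431 cells, median 29046 UMIs) had 2636 CPM (2621 to 2652) and 28.5% (26.2% to 30.9%). Each of the 38 genes had more CPM in the MRC1-led cluster, but the share of all genes that did so was not counted. TOP2A took 600.0 CPM in the MRC1-led and 305 CPM in the CCL4-led cluster, MKI67 306 and 171 CPM, HJURP 27.7 and 10.9 CPM, CDK1 105 and 80.7 CPM, and GAS2L3 47.0 and 35.3 CPM.

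Within the thinned macrophage-like cells, the other 37 genes were all denser in the 758 cells with a TOP2A UMI than in the 1299 without. The cells were split on a member, and the share of all genes denser in the TOP2A-positive cells was not counted. This count therefore cannot be called particular to mitosis genes. The mean UMI count per cell was 9.73 times higher for ANLN, a scaffold of the contractile ring, 9.51 times for UBE2C, 7.95 times for KIF11, the motor that pushes spindle poles apart, and 6.85 times for CDCA8. MKI67 was found in 56.7% of TOP2A-positive and 12.5% of TOP2A-negative cells. The ratios were lower for CCNB1 (3.55), CCNB2 (3.16), NCAPD2 (2.69) and TUBB4B (2.59). The lowest was that of GAS2L3 (1.47), detected in 11.6% of TOP2A-positive and 8.24% of TOP2A-negative cells. These cells share 1 library, so the ratios describe it and were not tested.

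On days 7 and 9 the members' CPM also varied by class. Endothelial-like cells were low, with 1261 CPM on day 7 (1800 cells, TOP2A in 8.48%) and 1242 CPM on day 9 (1955 cells, 10.5%). Erythroid-like cells had 2902, 3669 and 4040 CPM on days 7, 9 and 12, but most day 12 cells (218 of 286) came from another cluster than those of the earlier days. Megakaryocyte-like cells had 2228, 2576 and 2019 CPM, but at a finer resolution 934 of the 1130 day 7 cells fell in a progenitor-like cluster and 75 in a megakaryocyte-like one, against 1091 of 1638 in the megakaryocyte-like one on day 9 and 221 of 229 on day 12. An unnamed cluster led by ACTC1 and ANKRD1 had 4278 CPM on day 7 (1226 cells, TOP2A in 28.5%) and 2663 CPM on day 9 (2039 cells, 22.8%), and an unnamed cluster led by RUNX3 and CD3D had 3256 and 3579 CPM. An unnamed cluster led by LRRC75A and C1orf56, held almost wholly on day 9 (1121 of its 1128 cells), had 2372 CPM, yet 72.0% of its thinned cells held UMIs of 5 or more members, with a median of 6 and a maximum of 15 members in a cell. In macrophage-like cells on day 12 that share was 40.3%, at a median of 3 members. The high share was not particular to this cluster. On day 9 the cluster led by RUNX3 and CD3D had 69.2%, at a median of 7 members, and erythroid-like cells 52.9%, at a median of 5.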

How the data were processed

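Bulk values were deposited as TPM in 1 table, read by column title, and every per-sample column was mapped to a sample (0 columns unused). Per the submitters' processing notes, the RNA tools include HISAT2, DESeq2, HTSeq 0.11.1 and Trim Galore 0.4.4, with builds hg38 and GRCh38. The sources used here do not say which of them made the TPM or whether strand was used. Single-cell UMI counts were deposited as filtered matrices, from Cell Ranger 7.1.0 (days 7 and 9) and 7.0.0 (day 12) per the file headers. TPM keep no read totals, so no counting interval was possible for bulk values.

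The members and all gene lists were chosen with earlier results of these data known. Genes with a mean of at least 1 TPM were tested on log2(TPM + 1) with limma 3.58.1 in R 4.3.3, which understates changes of low genes. One fit held the 8 day 12 libraries of 3D and 2D (13131 genes), and another the 28 3D libraries (13384 genes). All 38 members passed both filters. A call is a Benjamini-Hochberg adjusted p under 0.05 over all tested genes. Tested on simulated data over 13131 genes, the 3D against 2D fit called 46% of log2 changes of 1 and 83% of log2 changes of 2. For day 16 against day 12 (13384 genes) it called 26% and 63%. The changes were planted with normally distributed noise in a small part of the genes, none of them low. These shares thus do not cover low members or a comparison where many genes change, and false calls are not given here. Called members are named, with values by library for up to 4 in each direction with the lowest adjusted p, and for MKI67, TOP2A, CDK1, CCNB1, AURKB and CKS2 in 3D against 2D. Other lists are given as counts, with at most 3 named genes each. Alternatives were a pseudocount of 0.1, no filter, median-ratio scaling, a replicate block, a fit without E. coli and leaving out each library.

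Cells with at least 1000 UMIs, 500 genes and at most 15% mitochondrial UMIs were kept, doublets were removed with Scrublet at an assumed rate of 0.06 (216, 435 and 369 cells on days 7, 9 and 12), leaving 6551, 11292 and 7592 cells of 7034, 12891 and 8159 barcodes. Clusters (scanpy 1.11.5, 2000 variable genes, 30 components, resolution 0.5) were made without member and other cell cycle genes. A cluster was named with at least 5 listed markers at 20 CPM or more and 2 times the other cells. Promoter motifs were searched in RefSeq's table, matched by symbol.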

Additional observations from a re-analysis of the deposited data

Results flagged for a closer look

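Among 76 checks of a lone high or low library in the 2 groups of 4, 2 were flagged. Chance alone gives about 1 in 20, so these are no more than chance would give. UBE2C in 3D day 12 replicate 2, at 210.1 TPM, lay below the other three, with 0.872 of the group's range on the log2(TPM + 1) scale between it and its neighbour. KIF2C in 2D day 12 replicate 3, at 51.4 TPM, lay below its group likewise, with a share of 0.87 on that scale.

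The FBS difference differed between days 16, 19 and 23 for 16 genes by limma's interaction test. The adjusted p was 0.00251 for TUBB4B, 0.00509 for TPX2, 0.00585 for AURKB, 0.0064 for CDC20, 0.00794 for KIF23, 0.00852 for UBE2C and 0.00962 for BIRC5. It was 0.0182 for DLGAP5, 0.0204 for MKI67, 0.0277 for TOP2A, 0.0277 for HMGB2, 0.0372 for KIF11, 0.0403 for ANLN, 0.042 for CDCA8, 0.0437 for HJURP and 0.0484 for CDK1. KIF23 showed 0.96, -2.10 and -0.82 on days 16, 19 and 23, BIRC5 0.00, -1.65 and -2.49, and HMGB2 1.65, -0.67 and 0.71.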

How the results depend on the processing

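With TPM alone, the number of reads behind a value is unknown, for low members such as KIF23 and DLGAP5 too. In 3D against 2D no called member changed direction under any alternative run. The cause of each change below was not tested. With a pseudocount of 0.1, lower members numbered 2 at day 19 and 16 at day 23 against day 12, 6 at day 23 against day 19 and 7 with FBS at day 19, higher ones 7 at day 19 against day 16, and interactions 9. With no filter on low values there were 2 lower at day 19, 11 lower with FBS at day 19 and 10 interactions. Median-ratio scaling gave 8 lower at day 19, 1 higher in SP6A and 6 lower in SP14. Without E. coli in the fit there were 7 lower at day 19, 6 in SP6A and 5 in SP14, and 1 higher with FBS at day 23.

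Replicate numbers name libraries only: deviations of same-numbered libraries correlated at -0.122 to 0.0503. With the replicate block 2 members were lower at day 19, 1 in SP6A and 1 in SP14, and the CKS1B and MKI67 calls of 3D against 2D were lost.

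Median-ratio scaling shifted the median of all genes by 0.17 in 3D against 2D (calls from 1710 higher and 3249 lower to 2376 and 2553), -0.26 at day 16 (1382 and 837 to 765 and 1422), -0.13 at day 19 (853 and 722 to 672 and 1109), 0.11 for day 19 against 16 (46 and 45 to 58 and 25) and 0.15 for day 23 against 19 (591 and 1067 to 806 and 801). It shifted it by -0.16 with FBS at day 23 (1187 and 651 to 868 and 881), -0.24 in SP6A (2290 and 1446 to 1621 and 2116) and -0.23 in SP14 (2457 and 1744 to 1822 and 2375).

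Leaving out 1 library at a time gave 5 to 7 higher and 4 to 5 lower in 3D against 2D. Against day 12 it gave 24 to 30 lower at day 16, 0 to 1 higher and 2 to 2 lower at day 19, and 20 to 26 lower at day 23. It gave 4 to 9 higher for day 19 against 16 and 4 to 9 lower for day 23 against 19. With FBS it gave 1 to 5 higher and 2 to 3 lower at day 16, 9 to 18 lower at day 19, 4 to 13 lower at day 23, and 9 to 17 interactions. In SP6A it gave 1 to 3 higher and 0 to 3 lower, in SP14 2 to 3 higher and 0 to 2 lower, and in E. coli 1 to 3 higher and 29 to 32 lower. Where 1 of 2 libraries is left out, the other is assumed to vary like the rest. The E. coli differences that turned sign ran, without replicate 1 and without replicate 2, from 1.29 to -3.84 for AURKA, 1.45 to -1.78 for ECT2, 0.089 to -3.98 for NUSAP1 and -1.95 to 0.86 for HMGB2.

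On day 12, keeping doublets gave members' CPM of 3317 in macrophage-like, 1439 in megakaryocyte-like, 3911 in erythroid-like and 3154 in granulocyte progenitor-like cells. A mitochondrial limit of 10% gave 3345 in macrophage-like and 2212 in megakaryocyte-like cells, and resolution 1.0 gave 1531 in megakaryocyte-like cells. Thinned to 2000 UMIs, the TOP2A share was 29.5% in macrophage-like, 4.44% in megakaryocyte-like, 5.87% in mesenchyme or stroma-like, 23.9% in granulocyte progenitor-like and 20.7% in mast, basophil or eosinophil-like cells.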
